A study of Rattus norvegicus with 18 samples.

Results

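The CpGs described here lie on contigs of the rat genome rn6 that were never built into a chromosome. They were chosen by the name of their sequence and by their coverage, and their methylation took no part in the choice. Every CpG on a sequence named chrUn or ending in _random was taken, apart from contigs of X and Y, provided that no treatment had more than 2 of its 6 striata without it. A CpG was present in a striatum if at least 1 of its cytosines had 10 or more reads, and its 2 strands were then merged. This gave 557 CpGs on 83 contigs, of 556340 CpGs that met the same rule in the whole series. The CpGs of chromosomes 1 to 20, 550473 in number, were used for comparison.

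The samples came from 9 male juvenile Wistar rats whose left medial forebrain bundle had been injected with 6-OHDA, a toxin of dopaminergic neurons, on postnatal day 21. From postnatal day 35 to 49, and a last time on day 53, 3 rats received saline (UNT), 3 received L-DOPA, given with benserazide, and 3 received L-DOPA and benserazide with Riluzole (L-DOPA + R), a drug that dampens glutamate transmission. The lesioned and the contralateral (control) striatum of each rat were collected after the last treatment, so that there were 18 striata. The control side is the other hemisphere of a lesioned brain, and no rat without a lesion was included. DNA methylation was measured by RRBS, in which DNA is cut at CCGG by MspI and bisulfite turns unmethylated cytosines into bases that are read as T. A methylation level here is the percentage of reads with a C at a CpG. CpG methylation at these contigs holds no marker by which the labelled tissue could be checked.

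An unplaced contig (chrUn) is an assembled stretch of DNA whose chromosome is unknown, whereas an unlocalized contig (_random) has been assigned to a chromosome but not to a place on it. Such contigs often hold repeats, segmental duplications and multicopy genes, since these are hard to order during assembly. If several copies in the animal are represented by 1 copy in the assembly, the reads of all copies pile up on it, and the methylation measured there is an average over the copies. In mammals, CpGs in dense clusters (CpG islands) are mostly unmethylated, while scattered CpGs are mostly methylated. The genes, repeats and sequences of the contigs were not analysed here.

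Of the 557 CpGs, 491 were on 66 unplaced contigs and 66 on 17 unlocalized contigs. The CpGs were unevenly shared among contigs. The median was 4 CpGs per contig, 17 contigs held a single CpG, and 18 contigs with at least 10 CpGs held 323 of them. The 8 largest held 189. Most contig CpGs with any read were too thinly covered for the rule, since 3501 CpGs on 291 contigs were listed, 1550 of them reached 10 reads in a striatum, and 993 of these did not meet the rule. Between 454 (L-DOPA control striatum 2) and 557 (UNT lesioned striatum 1) of the members were present in a striatum. The 289 members present in all 18 striata were 51.9% of the set, against 53.1% of the chromosome CpGs.

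The contigs took a small and stable share of the sequencing. Between 18471279 and 49113957 reads per striatum were listed at cytosines of CpGs, most for UNT lesioned striatum 1 and fewest for L-DOPA control striatum 2, and 0.106% to 0.114% of them fell on contigs. By rat, the share was 0.107% ± 0.000146 for UNT, 0.110% ± 0.00313 for L-DOPA and 0.109% ± 0.00121 for L-DOPA + R (SD, n = 3 rats). An exact two-sided permutation test over rats gave p = 0.4 for L-DOPA against UNT, p = 0.1 for L-DOPA + R against UNT and p = 0.6 for L-DOPA + R against L-DOPA, with 0.1 as the smallest p that 3 against 3 rats allow. The median coverage of the members was between 19 and 47 reads per striatum, against 18 to 47 on the chromosomes. It was slightly higher on contigs than on chromosomes in 9 of 9 rats, by 0.0948 ± 0.0255 on the log2 scale (SD), which is a description without a test, since coverage took part in the choice of the CpGs. Fully methylated spike-in DNA read between 98.1% and 98.7% methylated and unmethylated spike-in DNA between 0.302% and 0.928%.

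Contig CpGs were more often unmethylated than those of the chromosomes. A mean methylation under 20% was found for 311 contig CpGs (55.8%), against 42.5% of the chromosome CpGs. In contrast, 164 contig CpGs (29.4%) were at 80% or more, against 34.9%, and 82 (14.7%) were between these limits, against 22.5%. The median level was 7.91% on contigs and 47.7% on chromosomes. Unplaced contigs had 278 of 491 CpGs under 20% and 139 at 80% or more. On the unlocalized contigs, these were 33 and 25 of 66.

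**Figure D1:**
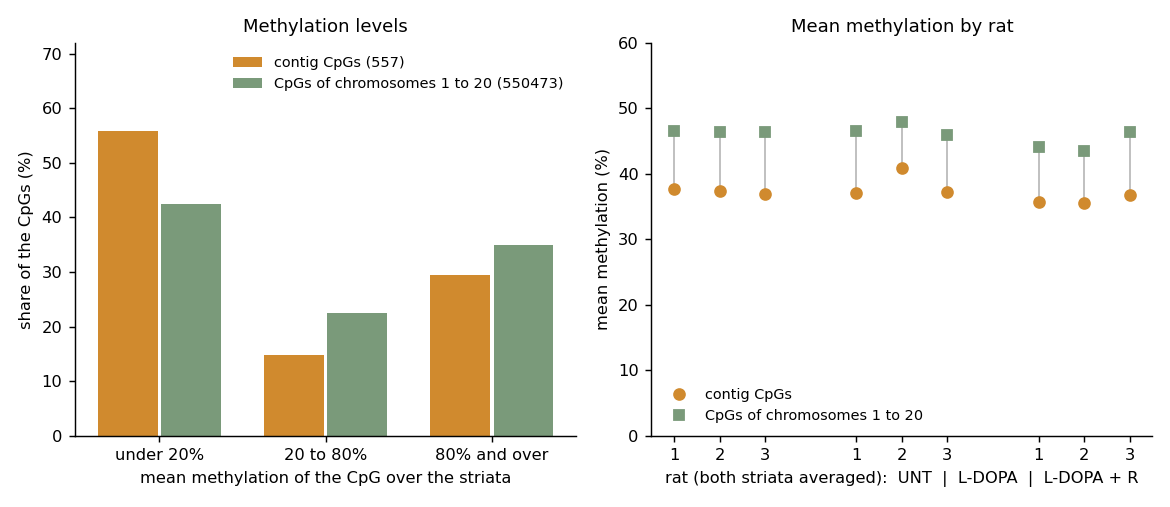
On the left, bars give the percentage of the 557 contig CpGs and of the 550473 CpGs of chromosomes 1 to 20 with a mean methylation under 20%, from 20 to 80%, or of 80% and over. On the right, points give the mean methylation (%) of both sets in each of the 9 rats, both striata averaged, and the contig CpGs lie below the chromosome CpGs in every rat.

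The mean methylation of the members was 37.7%, 37.4% and 36.9% in the 3 UNT rats, 37.0%, 40.8% and 37.2% in the L-DOPA rats, and 35.6%, 35.5% and 36.8% in the L-DOPA + R rats. The chromosome CpGs of the same rats had means between 43.5% and 48.0%. The contig mean was therefore lower in 9 of 9 rats, by differences from -9.61 to -7.13 percentage points with a mean of -8.73 ± 0.797 (SD, exact two-sided sign-flip test, p = 0.00391, the smallest that 9 rats allow). The same CpGs were averaged in every rat, so that this p covers the spread between rats and not the choice of CpGs or contigs. The size of the gap depended on which CpGs and contigs were counted. Over the CpGs present in all 18 striata it was -3.10 points. If the 3 contigs with the most CpGs were left out, it was -3.17 points. If each contig counted the same, the contigs were higher than the chromosomes by 7.88 points, with the same p of 0.00391 in the sign-flip test.

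The gap also moved with the density of CpGs. Contig CpGs had a median of 4 other CpGs within 100 bases, and chromosome CpGs 3. Crowded CpGs, with 5 or more such neighbours, were 47.0% of the contig set and 31.9% of the chromosome set. Within this class, contig CpGs were at 14.5% ± 0.778 and chromosome CpGs at 13.3% ± 0.532 (SD, n = 9 rats), and the contig mean was the higher in 9 of 9 rats. With 2 to 4 neighbours, the means were 49.5% ± 1.75 on contigs and 54.0% ± 1.20 on chromosomes. With 0 or 1 neighbour, they were 66.6% ± 1.54 and 69.4% ± 1.45. In both sparser classes the contig mean was the lower in 9 of 9 rats. With the chromosome CpGs weighted to the same 3 classes, the difference was -1.21 points (exact two-sided sign-flip test, p = 0.0195). This p, too, covers the spread between rats only. The classes of density were added after the values had been seen.

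Of the 8 contigs with the most members, 4 were nearly uniform in methylation. The last place among the 8 was a tie at 16 CpGs. chrUn_KL568176v1 was taken, and chrUn_KL568408v1 (CpGs from 0% to 43.1%) and chrUn_KL568409v1 (42.2% to 95.1%) were not. chrUn_KL568395v1 held 37 CpGs between positions 44364 and 45022, all of them under 20%, with a mean of 0.981% ± 0.326 (SD, n = 9 rats). chrUn_KL568464v1 had 21 CpGs within 236 bases with a mean of 0.705% ± 0.194. The mean was 2.03% ± 0.507 for the 19 CpGs of chrUn_KL568446v1, and none of them exceeded 8.14%. At the other end, chrUn_KL568176v1 had 16 CpGs with a mean of 93.7% ± 1.27, 15 of them at 80% or more. These are the 2 usual states of CpGs, and each of these 4 contigs was almost wholly in 1 of them.

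Of the other contigs among these 8, 3 held CpGs of both states and 1 held none at 80% or more. chrUn_KL568384v1, with 30 CpGs between positions 167 and 2322, had a mean of 8.41% ± 1.18, but its first CpG was at 94.2%. chrUn_KL568413v1 had 30 CpGs spread over 99491 bases, of which 22 were under 20% and 6 at 80% or more, and its mean was 25.4% ± 1.54. Of the 17 CpGs of chrUn_KL568451v1, 13 were under 20% and 2 at 80% or more, and the mean was 21.2% ± 1.95. chrUn_KL568337v1 had no CpG at 80% or more, and 17 of its 19 CpGs were under 20%. They ranged from 1.43% to 30.4%, with a mean of 6.63% ± 2.36 over all 19. Among all 18 contigs with at least 10 CpGs, 11 had a mean under 20% and 3 a mean of 80% or more.

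**Figure D2:**
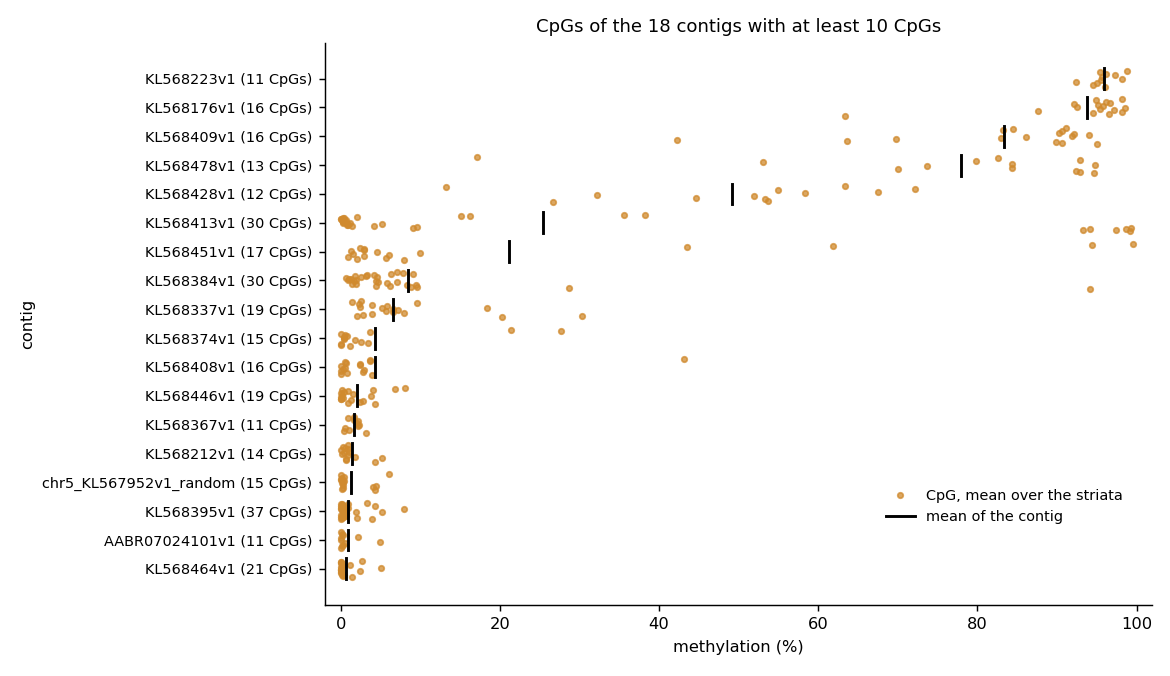
Each row is 1 of the 18 contigs with at least 10 member CpGs, the points are its CpGs with their methylation (%) averaged over the striata, and the black bar is the mean of the contig. Most rows gather below 20%, and chrUn_KL568428v1 is spread from 13.3% to 72.1%.

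The range of the contig mean over the 9 rats was compared among the contigs with at least 10 CpGs, of which chrUn_KL568428v1 varied most. Its 12 CpGs within 525 bases were at 53.5%, 54.1% and 47.8% in UNT, 51.3%, 41.2% and 48.7% in L-DOPA, and 47.3%, 46.8% and 52.5% in L-DOPA + R, rat by rat. The groups overlapped, the lowest value was that of the shallowest rat, and with a median of 17 reads per CpG this contig had 0.655 times the chromosome coverage. Its mean of 49.2% ± 4.08 (SD, n = 9 rats) was the nearest to the middle of the scale among the 18 contigs. The mean of chrUn_KL568409v1 was between 79.0% and 87.5%, with 82.2% to 86.1% in UNT, 82.2% to 87.5% in L-DOPA and 79.0% to 83.8% in L-DOPA + R. chrUn_KL568337v1 ranged from 1.93% to 9.64%. Its rats were at 5.94% to 9.64% in UNT and at 5.43% to 7.39% in L-DOPA, and the L-DOPA + R rats took up nearly the whole range, from 1.93% to 9.54%.

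Some contigs had several times the coverage of the chromosomes. Of the 54 contigs with at least 3 CpGs, 6 had more than 2 times the median coverage of the chromosome CpGs, and 1 more than 5 times. This was chrUn_KL568478v1, whose 13 CpGs between positions 21399 and 22335 had a median of 139.5 reads, or 5.16 ± 2.05 times the chromosome median (SD, n = 9 rats). Their methylation was mostly high, with a mean of 77.9% ± 2.22 and 8 CpGs at 80% or more, but the last CpG was at 17.2%. chrUn_KL568433v1 (3 CpGs, 94.0% methylated) had 2.56 ± 0.579 times the chromosome coverage and chrUn_KL568509v1 (7 CpGs, 1.92% methylated) 2.38 ± 0.302 times. High coverage was thus found at methylated and at unmethylated contigs.

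The coverage of 3 of the 5 contigs with the highest coverage differed between treatments without overlap in at least 1 comparison, and so did that of 57.4% of the 54 contigs with at least 3 CpGs. Such a separation is therefore nothing particular to these contigs. For L-DOPA against UNT it was found at 44.4% of the 54 contigs, for L-DOPA + R against UNT at 22.2% and for L-DOPA + R against L-DOPA at 29.6%. Relative to the chromosome median of the same rat, chrUn_KL568478v1 had a coverage of 5.54, 4.09 and 5.48 in UNT, 7.01, 7.75 and 7.66 in L-DOPA, and 2.65, 2.39 and 3.84 in L-DOPA + R. The 3 groups were fully apart, with L-DOPA highest and L-DOPA + R lowest. In contrast, the mean methylation of this contig was 77.1% ± 2.00, 78.2% ± 3.34 and 78.4% ± 1.79 in these groups (SD, n = 3 rats). chr20_KL568103v1_random, with 4 CpGs at 1.48% methylation, had a coverage of 1.54, 1.94 and 2.09 in UNT and 3.52, 3.88 and 3.88 in L-DOPA, which did not overlap. In L-DOPA + R it was 2.37, 1.70 and 1.95. chrUn_AABR07024203v1, with 3 CpGs at 96.9%, had 2.10, 1.58 and 3.97 in UNT and less in all L-DOPA rats, with 1.35, 0.861 and 1.48. It had 3.12, 3.98 and 1.37 in L-DOPA + R. These coverages are given without a test, since the 5 contigs were picked by their coverage.

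**Figure D3:**
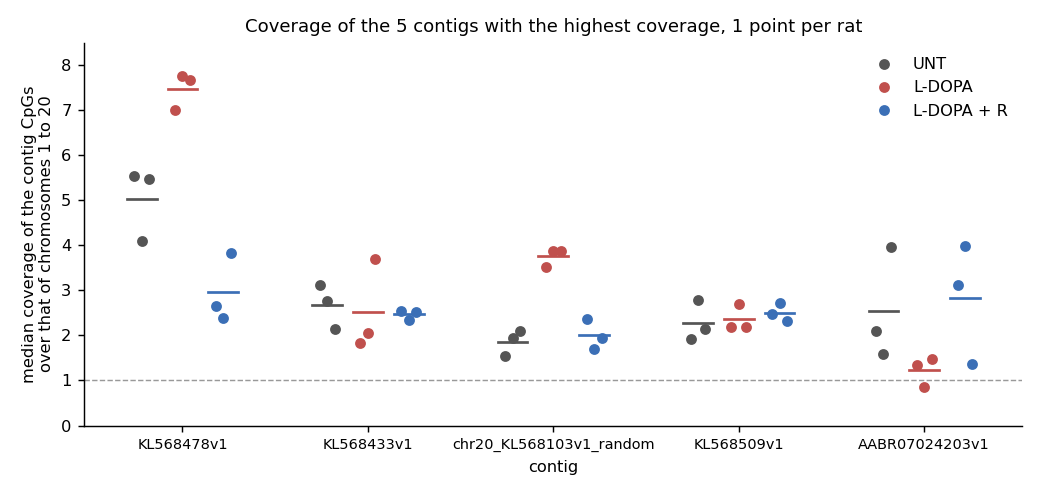
Points give, for each rat, the median coverage of the member CpGs of a contig divided by the median coverage of the CpGs of chromosomes 1 to 20, with lines at the group means and a dashed line at 1. On chrUn_KL568478v1 the L-DOPA rats lie between 7.01 and 7.75, above all UNT rats, and the L-DOPA + R rats between 2.39 and 3.84, below them.

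The strands of a CpG were read separately in part of the set. Where both cytosines had at least 10 reads, the absolute gap in methylation between the strands on contigs was 4.30 ± 0.466 points for the UNT rats, 6.97 ± 2.38 for the L-DOPA rats and 5.25 ± 0.527 for the L-DOPA + R rats (SD, n = 3 rats). It was smaller on contigs than on chromosomes in 8 of 9 rats, with a mean difference of -1.49 ± 1.35 points (SD, exact two-sided sign-flip test, p = 0.0195). The exception was L-DOPA rat 2, the rat with the fewest reads. With at least 20 reads per cytosine the difference was 0.570 points in the opposite direction (p = 0.453 in the same exact test). Without cytosines 46 to 50 bases past another listed cytosine of the same strand, it was -0.716 points (p = 0.117 in the same exact test). Between 41 and 154 contig CpGs per striatum had enough reads on both strands, and the contig and chromosome CpGs were not matched in methylation level.

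Some cytosines had no read in all 6 striata of a treatment, but at least 10 reads in 4 or more striata of both other treatments. UNT lacked such a cytosine at 4 members (0.718%) and at 0.575% of the chromosome CpGs. L-DOPA and L-DOPA + R lacked one at 0 members, and at 20 and 7 chromosome CpGs. The position in the read was followed as well. Of the members, 79 (14.2%) had a cytosine 46 to 50 bases past another listed cytosine of the same strand, that is, near the end of a read that starts there, against 15.9% of the chromosome CpGs. The labels give no library pool or sequencing run, so that the treatment and the run cannot be told apart, for coverage as for these missing reads.

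The mean methylation of the contig CpGs was then compared between treatments. The UNT rats had 37.3% ± 0.383, the L-DOPA rats 38.3% ± 2.16 and the L-DOPA + R rats 36% ± 0.697 (SD, n = 3 rats). The chromosome CpGs of these rats were in the same order, with 46.4% ± 0.0965, 46.8% ± 1.03 and 44.6% ± 1.54 in UNT, L-DOPA and L-DOPA + R. On contigs, L-DOPA was 1.00 points above UNT, with overlapping rats (exact two-sided permutation test, p = 0.8), and without L-DOPA rat 2 the difference was -0.245 points. L-DOPA + R differed from UNT by -1.34 points and from L-DOPA by -2.35 points, in both cases without overlap between the rats and with the smallest possible exact permutation p of 0.1. Without L-DOPA rat 2, the difference between L-DOPA + R and L-DOPA was -1.10 points. With each CpG weighted by its reads, it was -7.40 points, that between L-DOPA + R and UNT was -3.29 points and that between L-DOPA and UNT was 4.11 points, each with the smallest possible p of 0.1 in the same exact test. In this weighting the coverage of a contig sets its weight, and chrUn_KL568478v1 had 5.04, 7.47 and 2.96 times the chromosome median in UNT, L-DOPA and L-DOPA + R. The part of coverage in these 3 differences was not tested. The differences also depended on which CpGs were present. Over the 289 members present in all 18 striata, the means were 45.7% ± 0.121, 45.0% ± 0.497 and 44.7% ± 0.339 in UNT, L-DOPA and L-DOPA + R (SD, n = 3 rats), and L-DOPA + R differed from L-DOPA by -0.318 points (exact permutation test, p = 0.4). The chromosome CpGs moved in the same order on that basis, with 49.0% ± 0.110, 48.3% ± 0.396 and 47.4% ± 0.610.

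Single CpGs were tested between treatments with a logistic model per CpG, a correction for overdispersion and a chi-square test, with each striatum as a sample. A CpG was called differentially methylated if its q, adjusted by Benjamini-Hochberg over all tested CpGs, was under 0.01. A difference is given in percentage points from the summed reads. Since both striata of a rat count as samples, these q-values take in the spread between striata at most, and do not treat the rat as the unit. Where that spread did not exceed the counting error of the reads, they rest on the counting error alone. All 557 members were tested in each comparison. In L-DOPA against UNT, 3 members (0.539%) were called, 2 lower and 1 higher, against 0.351% of all tested CpGs. In L-DOPA + R against UNT, 5 members (0.898%) were called, all 5 lower, against 0.445% of all. In L-DOPA + R against L-DOPA, 1 member (0.180%) was called, as higher, against 0.0477%. These are counts of 1 to 5 CpGs, and a single call is 0.180% of the members.

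At an unadjusted p under 0.05, there were 49 members (8.80%) in L-DOPA against UNT, 53 (9.52%) in L-DOPA + R against UNT and 43 (7.72%) in L-DOPA + R against L-DOPA. The shares of all tested CpGs were 7.37%, 9.52% and 7.09%. The median difference of the members was -0.0451, -0.283 and 0 points, and that of all tested CpGs was -0.00614, -0.265 and 0 points. The members were thus close to all CpGs in the number and the direction of small differences. The F test, which is stricter than the chi-square test with few samples, called 1, 0 and 0 members, against 0.0622%, 0.0578% and 0.000352% of all tested CpGs. At an unadjusted p under 0.05 in the F test there were 28 (5.03%), 36 (6.46%) and 27 (4.85%) members, against 4.26%, 5.86% and 3.93% of all. In all, 7 CpGs on 6 contigs were called in at least 1 comparison. Both comparisons with UNT share the UNT striata, and 2 CpGs were called in both.

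These 2 CpGs lie 49 bases apart on chr4_KL567938v1_random, an unlocalized contig of chromosome 4, at positions 5254 and 5303 of rn6. At position 5303 the methylation in the UNT striata was 79.5%, 70.7% and 69.8% on the control side and 79.6%, 62.2% and 68.8% on the lesioned side. In L-DOPA it was 36.4%, 25% and 27.5% on the control side and 41.4%, 34.2% and 32.8% on the lesioned side. In L-DOPA + R it was 28.6%, 50% and 42.9%, and 44.4%, 42.2% and 25%. Every treated striatum was below every UNT striatum, on both sides. The differences from UNT were -39.6 points in L-DOPA (q = 9.74e-19) and -34.8 points in L-DOPA + R (q = 3.94e-08). The overdispersion in L-DOPA against UNT was at its minimum of 1, so that the q of 9.74e-19 rests on the counting error of the reads. Position 5303 was the 1 member that the F test also called in L-DOPA against UNT (q = 0.00558). The call in L-DOPA + R against UNT was lost in the F test (q = 0.0495) and with at least 20 reads per cytosine (q = 0.120).

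At position 5254, the striata were at 60% to 78.6% in UNT, with 12 to 25 reads each and 1 striatum under the limit of 10 reads. They were at 28.2% to 45.0% in L-DOPA and at 30.2% to 54.8% in L-DOPA + R. The groups did not overlap with UNT, and the differences were -31.1 points (q = 6.95e-05) and -30.9 points (q = 0.000555). Without UNT rat 1 or 2, the q rose to 0.0154 and 0.0144 for L-DOPA, and to 0.0705 and 0.0718 for L-DOPA + R, so that neither was called. The depth at this CpG was 0.399 times the chromosome median in UNT, 2.56 times in L-DOPA and 2.18 times in L-DOPA + R. At 12 reads, a level of 75% has a 95% Wilson interval of 46.8% to 91.1%, which covers the counting error only.

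By strand, with all reads counted, both CpGs were covered differently in UNT and in the treated rats. At position 5303 the plus strand had 0 reads in all 6 UNT striata, but 174 reads in L-DOPA, 5.17% of them methylated, and 136 reads in L-DOPA + R, of which 2.21% were methylated. On the minus strand of the same CpG, 72.5% of 251 reads were methylated in UNT, 61.5% of 169 in L-DOPA and 70.3% of 148 in L-DOPA + R. Position 5254 showed the mirror image. There the minus strand had 0 reads in UNT, 181 reads with 3.87% methylation in L-DOPA and 153 reads with 9.15% in L-DOPA + R, and the plus strand was at 71.6%, 74.4% and 70.6% in UNT, L-DOPA and L-DOPA + R. Both cytosines without UNT reads lay 46 to 49 bases past another cytosine of their strand. When the model also held a term for the strand, the differences at position 5303 were -11.0 points in L-DOPA (q = 0.680) and -2.24 points in L-DOPA + R (q = 1.00), and those at position 5254 were 5.44 (q = 0.911) and 1.62 points (q = 1.00). Neither CpG was called in a fit without the cytosines at this distance or 1 base further.

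**Figure D4:**
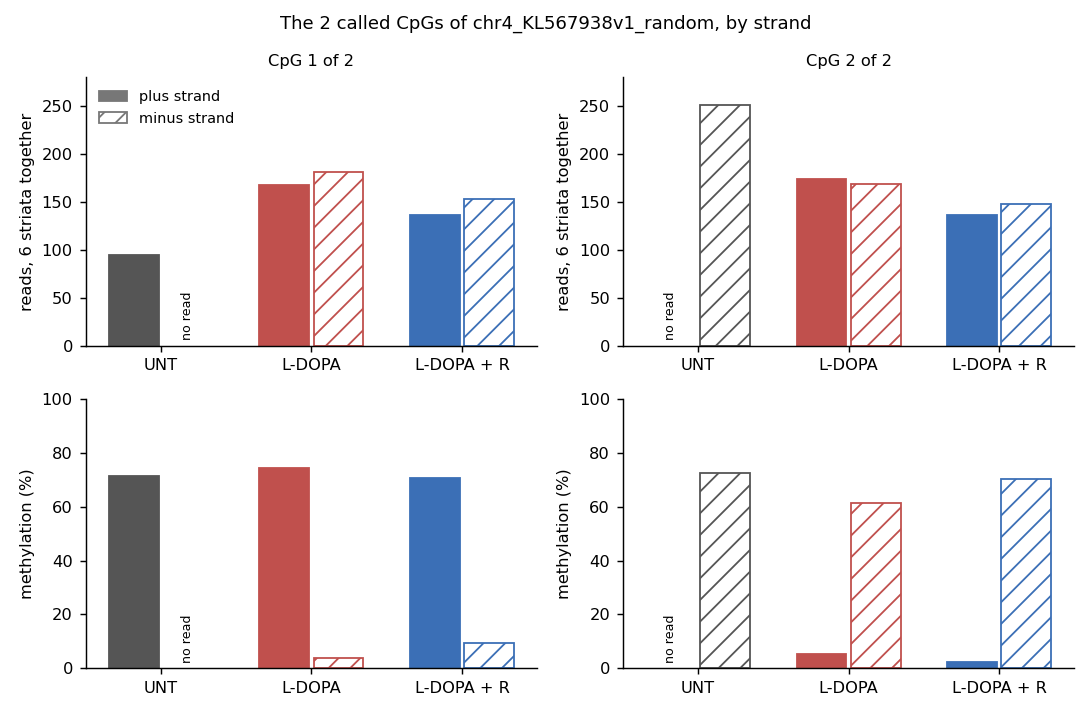
Bars give the reads summed over 6 striata (top) and their methylation in % (bottom) on the plus strand (filled) and the minus strand (hatched) of the CpGs at positions 5254 (CpG 1) and 5303 (CpG 2) of chr4_KL567938v1_random. In UNT 1 strand of each CpG has no read, and in both treated groups this strand is below 10% methylated while the other is above 60%.

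The remaining members of this contig did not pass the test. Position 5282, which lies between both called CpGs, was at 86.2%, 85.2% and 90.9% in UNT, L-DOPA and L-DOPA + R (means of 3 rats). Position 5091 was at 79.1%, 78.9% and 74.2%.

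The CpG called as higher in L-DOPA was at position 21769 of chrUn_KL568478v1, the contig with the highest coverage. It was read on the minus strand only. Its methylation on the control and then on the lesioned side was 64.8%, 66.2%, 71.8%, 63.9%, 57.3% and 70.7% in UNT, and 86.5%, 89.7%, 76.9%, 92.9%, 84.8% and 75.5% in L-DOPA. All L-DOPA striata were above all UNT striata, by 18.3 points in all (q = 0.000284). L-DOPA + R, at 62.7% to 76.4%, overlapped both UNT and L-DOPA, and its differences of 4.76 points from UNT (q = 0.701) and -13.6 points from L-DOPA (q = 0.228) were not called. By rat, the coverage of this CpG was 8.37 to 9.44 times the chromosome median in UNT, 7.22 to 8.33 times in L-DOPA and 4.02 to 5.16 times in L-DOPA + R, and its part in the difference was not tested. L-DOPA was thus below UNT here, unlike in the coverage of the whole contig. The other 12 CpGs of the contig were not called. Its neighbour at position 21794 was 94.4%, 94.6% and 95.3% methylated in UNT, L-DOPA and L-DOPA + R (means of 3 rats). The call was lost with the rat as the unit (q = 0.0832), and without L-DOPA rat 1, L-DOPA rat 2 or UNT rat 1 the q was between 0.0268 and 0.0290. The L-DOPA rats, at 89.7%, 87.3% and 76.2%, all stayed above the UNT rats, at 64.4%, 61.7% and 71.2%. A limit on very high coverage left this CpG out of the test.

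Among the CpGs called as lower in L-DOPA + R against UNT, position 9043 of chrUn_KL568342v1 had the largest change apart from the pair on chr4_KL567938v1_random. This CpG, the only member on its contig, was also read on the minus strand alone. In UNT it was at 48.1%, 41.8% and 45.0% on the control side and 46%, 39.1% and 43.2% on the lesioned side, with 88 to 126 reads per striatum. L-DOPA + R striata were at 17.5%, 31.1% and 30.8%, and 22.2%, 30.8% and 15.2%, all below UNT. The difference was -19.7 points (q = 5.86e-07). It stayed called in each of the 6 fits that left out 1 rat, with the rat as the unit (q = 0.000333) and without cytosines near the read end (q = 3.38e-06), but not in the F test (q = 0.0739). In L-DOPA the striata were spread from 30.8% to 51.8%, and L-DOPA + R differed from L-DOPA by -18.9 points, which did not pass the test (q = 0.0351) but passed it without L-DOPA rat 3 (q = 7.65e-05). Its depth was alike in the groups, at 2.91, 2.89 and 2.68 times the chromosome median in UNT, L-DOPA and L-DOPA + R.

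Position 10472 of chrUn_KL568391v1, the only member of that contig, had the deepest coverage of the called CpGs. In UNT it was at 76.6%, 81.1% and 77.7% on the control side and 75.1%, 77.0% and 78.9% on the lesioned side, from 618 to 1058 reads per striatum. In L-DOPA + R it was at 68.5%, 65.4% and 69.2%, and 71.7%, 70.8% and 71.2%, from 169 to 213 reads. The groups did not overlap, and the difference was -8.00 points (q = 0.000155). L-DOPA striata were at 73.3% to 80.2%, which overlaps UNT but not L-DOPA + R. L-DOPA + R differed from L-DOPA by -6.34 points, which was not called (q = 0.14). The coverage moved along, at 19.95 times the chromosome median in UNT, 10.4 times in L-DOPA and 8.79 times in L-DOPA + R, and its part in the difference was not tested. The call was lost without L-DOPA + R rat 1 (q = 0.0131) or rat 2 (q = 0.0261), and with the limit on very high coverage the CpG was no longer tested.

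Position 1353 of chrUn_KL568384v1, in the stretch of unmethylated CpGs of that contig, changed little in absolute terms. In UNT, 1.47% to 6.12% of the reads were methylated, from 136 to 228 reads per striatum. In L-DOPA + R, 0 of 268 reads were methylated. A limit of 3 reads gives a share of up to 1.12%, which covers counting error only, since the reads come from 6 striata and were amplified by PCR. The difference was -3.54 points (q = 0.00812). L-DOPA striata were at 0% to 3.03%, and neither the difference of L-DOPA from UNT (-2.54 points, q = 0.747) nor that of L-DOPA + R from L-DOPA (-1 points, q = 0.733) was called. The coverage was 4.81 times the chromosome median in UNT and 2.02 times in L-DOPA + R, and its part in the difference was not tested. Of the 6 fits without 1 rat, 2 kept the call, and it was lost with the rat as the unit (q = 0.169), with at least 20 reads per cytosine (q = 0.0259) and without cytosines 50 bases (q = 0.0135) or 46 to 50 bases (q = 0.0186) past a cytosine.

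In L-DOPA + R against L-DOPA, the called CpG was at position 555 of chrUn_AABR07024203v1, where nearly all reads were methylated. L-DOPA striata were at 94.4%, 100% and 87.7% on the control side and 93.9%, 100% and 91.3% on the lesioned side, from 15 to 57 reads. All L-DOPA + R striata were at 100% except for 1 at 99.0%. The groups overlapped at 100%, in L-DOPA rat 2. The difference was 6.96 points (q = 0.00309), and the L-DOPA rats below 100% were rats 1 and 3. Without L-DOPA rat 3 the q was 0.381, with the rat as the unit it was 0.0474, and 3 of the 6 fits without 1 rat kept the call. UNT striata were at 92.9% to 98.4%. L-DOPA + R differed from UNT by 2.27 points (q = 0.146) and L-DOPA from UNT by -4.69 points (q = 0.363), and neither was called.

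**Figure D5:**
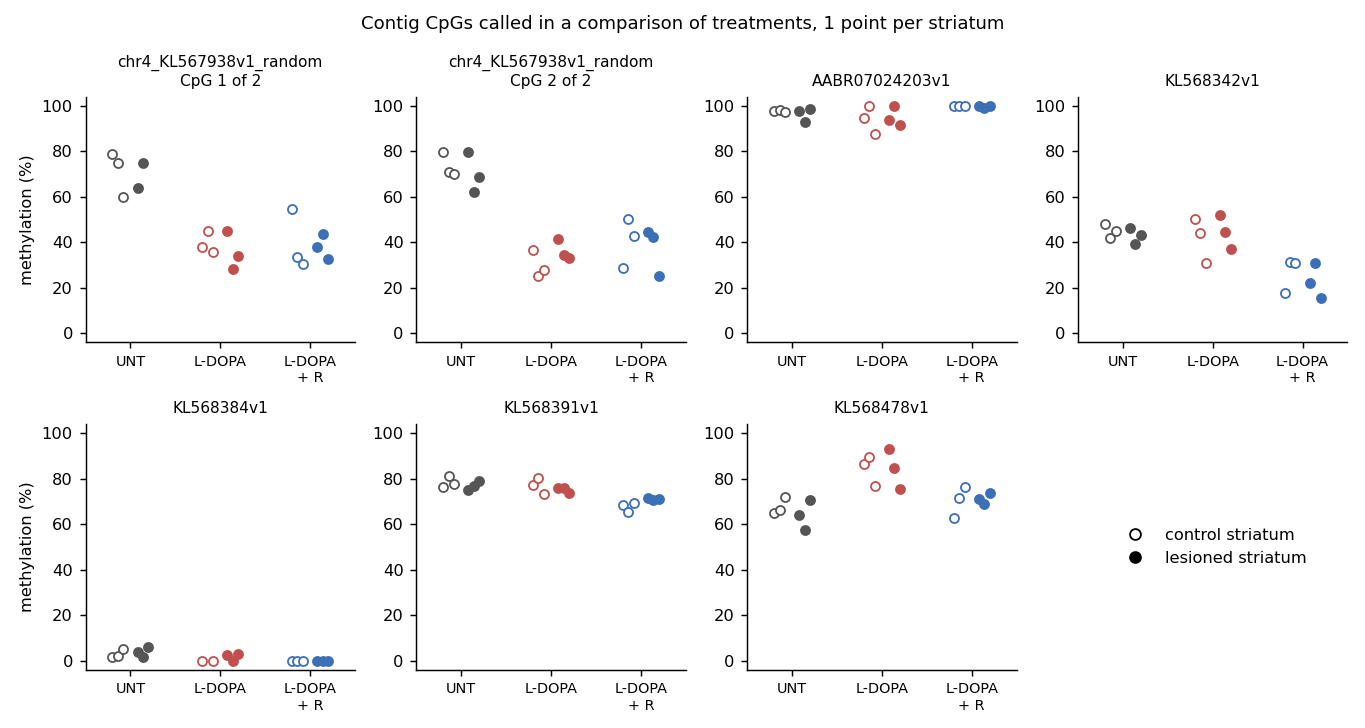
Each panel is 1 of the 7 contig CpGs called in a comparison of treatments, and each point is the methylation (%) of 1 striatum, open for the control and filled for the lesioned side. The UNT striata of both CpGs of chr4_KL567938v1_random lie above all treated striata, and the L-DOPA + R striata of chrUn_KL568342v1 lie below all UNT striata.

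No contig CpG was called between the lesioned and the control side. Within UNT, 0 of 513 members present in all 6 striata were called, against 0.00193% of all tested CpGs. Within L-DOPA, 0 of 352 were called, against 0.00101%, and within L-DOPA + R 0 of 412, against 0.00176%. At an unadjusted p under 0.05 there were 33 (6.43%), 16 (4.55%) and 25 (6.07%) members by the chi-square test, against 6.45%, 5.40% and 6.29% of all tested CpGs. The F test has too little power with 3 against 3 striata to bear on these counts. The mean methylation of the members was higher on the lesioned side in 6 of 9 rats, by 0.626 ± 1.25 points (SD, exact two-sided sign-flip test, p = 0.199), and by 2.08 points with each CpG weighted by its reads (p = 0.0859 in the same exact test). Over the members present in all 18 striata, the direction reversed to -0.0288 points (p = 0.910 in the same exact test). An interaction of treatment and side was fitted at members present in all 12 striata of a comparison, with 0 called of 339, 393 and 295 members in L-DOPA against UNT, L-DOPA + R against UNT and L-DOPA + R against L-DOPA, against 0%, 0% and 0.000658% of all tested CpGs. At an unadjusted p under 0.05 in this chi-square test there were 26 (7.67%), 23 (5.85%) and 22 (7.46%) members, against 6.05%, 6.44% and 6.12% of all.

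The CpGs with the smallest p between the sides of each treatment are given as lesioned minus control, and none was called. In UNT, position 63998 of chrUn_KL568464v1 was at 14.8%, 8.82% and 9.68% on the control side and at 0% in the 3 lesioned striata, from 12 to 34 reads (q = 0.414). Position 104486 of chrUn_KL568465v1 was at 13.6%, 26.1% and 22.2% on the control side and 48.3%, 41.2% and 35.7% on the lesioned side (q = 0.474), and position 44444 of chrUn_KL568395v1 differed by -4.03 points (q = 0.5). In L-DOPA, the CpGs at positions 76965 and 76955 of chrUn_KL568410v1 differed by -16.7 and -9.43 points (q = 0.504 and 0.710), and position 169913 of chrUn_KL568409v1 was higher by 12.1 points (q = 0.704). In L-DOPA + R, positions 1526 and 1355 of chrUn_KL568384v1 differed by -6.67 and -4.84 points (q = 0.436 and 0.438), and position 27852 of chrUn_KL568433v1 by -3.22 points (q = 0.484). Both CpGs of chrUn_KL568384v1 were at 0% in all 3 lesioned striata.

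The spread of the members between rats is given as a description, without a test. For the 82 contig CpGs with a mean methylation between 20% and 80%, the median SD over the rats of a treatment was 4.53 points for UNT, 5.63 for L-DOPA and 7.51 for L-DOPA + R. On the chromosomes it was 5.82, 6.75 and 8.04. Over all 9 rats the median SD was 8.33 points on contigs and 8.54 on chromosomes. No contig CpG of the 82 had an SD over 25 points across all rats, as 1.16% of the chromosome CpGs of this class did. With 82 CpGs, a count of 0 cannot be told apart from so small a share. CpGs that were missing on both sides of a rat were counted too. Of the members, 44 (7.90%) were below 10 reads in both striata of at least 1 rat, against 7.81% of the chromosome CpGs. No read at all in a rat was found at 2 members (0.359%), against 0.231% of the chromosome CpGs. They lie at positions 76346 and 76367 of chr4_KL567940v1_random and had 0 reads in L-DOPA rat 1 and 29 to 72 reads in each of the other rats.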

How the data were processed

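RRBS of both striata of 9 rats was used, 3 rats each in UNT, L-DOPA and L-DOPA + R. The authors checked reads with FastQC, trimmed them with Trim Galore 0.4.0 in RRBS mode, mapped them to rn6 with Bismark (version 014.3 in the submitters' processing notes) and read them into methylKit. The coverage deposited by the authors counts the reads over each CpG cytosine that show a C or a T, per strand, without a minimum or normalization, and freqC and freqT were deposited as the percent of these reads. How multiply mapping reads were treated on contigs bears on their coverage and is not given in the sources used here.

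Methylated reads were rebuilt as whole numbers (99.998% of the values were within 0.1 read in the lowest striatum). Only cytosines with 10 or more reads were used, and strands were merged. The study's test was written anew in Python 3.11.15 with numpy 2.4.6, pandas 2.3.3, scipy 1.17.1 and numba 0.67.0: a logistic model per CpG, overdispersion of at least 1 from the Pearson residuals, a chi-square test, and Benjamini-Hochberg q under 0.01 over all CpGs tested, contigs, chromosomes, X, Y and M together. Treatments were compared over both sides, on CpGs present in at least 4 of 6 striata per treatment, and sides on CpGs present in all 6. Tested on 50000 simulated CpGs, 200 of them changed by 30 points with a spread between samples, 151 were recovered by the chi-square test with 32 false calls in L-DOPA against UNT, 141 with 25 in L-DOPA + R against UNT and 132 with 15 in L-DOPA + R against L-DOPA, and the F test 8, 10 and 2 with 0 false calls. Between the sides, changed likewise but without that spread, the F test recovered 0 of 200 in each treatment, so that its counts there are void. In this simulation, the chi-square test therefore admitted false calls when samples spread. That spread was set by choice and not fitted to these data, and striata were drawn without pairing by rat, so that the counts may differ for the real striata. Means were compared over rats by exact permutation and sign-flip tests.

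Same-numbered lesioned and control striata were taken as 1 rat, since the study took both striata of 3 rats per treatment and the labels number both sides alike. The labels name no rat, and every value by rat rests on this reading. Between treatments a number stands for different rats. As a check of the pairing, same-numbered striata were correlated after removal of the group means. Over 49 contig CpGs, r lay between -0.210 and 0.294 (18 differently numbered pairs: -0.249 to 0.222), which does not tell the pairs apart. Over 70715 chromosome CpGs it lay between 0.0505 and 0.154, over 0.1 in 2 of 9 pairs, and above all 18 differently numbered pairs (-0.0893 to 0.0237).

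Named were the 8 contigs with the most members, the 5 with the highest coverage (at least 3 members), the 3 with the largest range over rats (at least 10 members), every called member, and the 3 smallest p where fewer than 3 were called. In L-DOPA + R against L-DOPA, 2 of these 3 are positions 9043 of chrUn_KL568342v1 and 10472 of chrUn_KL568391v1. The rule for the members uses no methylation value, but the set as a topic and these lists were chosen with earlier results of these data known. Alternatives were the F test, no overdispersion correction, 20 reads, a coverage limit at the 99.9th percentile, cytosines 50 or 46 to 50 bases past a cytosine left out, the rat as unit, CpGs in all 12 striata, the strand as a term, a replicate block and each rat left out. The sequence and annotation of the contigs were not used here.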

Additional observations from a re-analysis of the deposited data

How the results depend on the processing

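The calls at single CpGs depended on the settings. In L-DOPA against UNT, 1 member was called with the F test, without cytosines 46 to 50 bases past a cytosine and with the strand as a term, instead of 3. In L-DOPA + R against UNT, 0 were called with the F test, 2 with at least 20 reads per cytosine (198 members tested), 2 without cytosines 46 to 50 bases past a cytosine and 3 with the strand as a term, instead of 5. In L-DOPA + R against L-DOPA, 0 were called with the F test and with the rat as the unit, and 3 without overdispersion correction, instead of 1. With each rat left out in turn, 1 to 3, 3 to 4 and 0 to 2 members were called in these comparisons, with fewest without UNT rat 1, without L-DOPA + R rat 1, and without L-DOPA + R rat 1 or 2. The 2 called in L-DOPA + R against L-DOPA without L-DOPA rat 3 were both lower, unlike the 1 reported. The replicate block called 3, 5 and 1 members. In the comparisons with UNT these were the CpGs called without it, but in L-DOPA + R against L-DOPA position 555 of chrUn_AABR07024203v1 was lost (q = 0.0549) and position 9043 of chrUn_KL568342v1 was called as lower (q = 0.00566). Between treatments a number joins different rats. Between the sides the block called 0, as did 20 reads, no overdispersion correction and each rat left out. The F test called 0 there too, but has too little power there to say anything of stability. The limit on very high coverage left out positions 21769 of chrUn_KL568478v1 and 10472 of chrUn_KL568391v1, and 2, 4 and 1 members were then called.

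The lower mean of contig CpGs held its direction with each rat left out (-8.93 to -8.62 points) and with other read filters, CpGs weighted by their reads or X added (-10.3 to -5.02 points), was -3.10 points over the CpGs in all 18 striata, and reversed to 7.88 points with each contig weighted the same. The mean of L-DOPA against UNT reversed to -0.714 over the CpGs present in all 18 striata, and ranged from -0.245 to 1.67 with rats left out, with the negative value without L-DOPA rat 2. L-DOPA + R against UNT lay between -1.74 and -1.11 points and against L-DOPA between -3.01 and -1.10 points with rats left out, and at -3.29 and -7.40 points with CpGs weighted by their reads, with 4.11 points for L-DOPA against UNT. The difference between sides was -0.0288 over the CpGs in all 18 striata and 2.08 (exact p = 0.0859) with CpGs weighted by their reads. The share of reads in L-DOPA + R against L-DOPA reversed to 0.000607 percentage points with at least 10 reads, and lay between -0.00281 and 0.000115 with rats left out. The strand gap was 0.570 with 20 reads and -0.716 (exact sign-flip p = 0.117) without cytosines 46 to 50 bases past a cytosine. The cause of these shifts was not tested. Settings by contig weight, density and presence in all 18 striata were chosen after seeing the data. The exact test of means with 3 rats a group cannot give a p under 0.1, and at 19 to 47 reads per CpG the power for small differences at single CpGs was not measured.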
